A study of Mus musculus with 32 samples.

Results

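A set of 92 genes was lower with siRNA against Dnmt1 than with control siRNA in every cytokine state of cultured mouse lung endothelial cells (ECs). The members were chosen by measured values. In CPM (counts scaled to the library total), the mean of the control siRNA group plus 0.25 had to be at least 1.7 times the mean of the Dnmt1 siRNA group plus 0.25, in each of 4 states. The control mean also had to be at least 1 CPM in each state. The merged table held 54429 symbols. Some symbols were left out by name, and 11165 of the others had a control mean of that level in all 4 states. Before any were left out by name, both conditions were met by 101 symbols. Of these 101, 9 were left out, among them Dnmt1 itself and genes of the Slc, Zfp, Hox and Mmp families. Because the ratios chose the members, the falls are described below and not tested.

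The cells were Veravec ECs, a single cultured line, and bulk RNA was sequenced. Every culture, controls included, was transfected in 2 rounds with an siRNA, which was either a control duplex (si-control) or directed at Dnmt1 (si-dnmt). Cultures then received no cytokine, TNFα (TNF, 10 ng/mL), IFNγ (IFN, 1000 U/mL) or their combination for 16 h, which made 8 groups of 4 libraries, 32 in all. The study describes the 4 as biological replicates. Every si-dnmt library received siRNA against Dnmt1, so that loss of Dnmt1 and other effects of the duplexes cannot be told apart in these data, and which duplex each library received is not stated.

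DNMT1 is the maintenance DNA methyltransferase, which copies methylation of CpG dinucleotides onto the new strand when DNA is replicated. Methylation at a promoter is commonly linked to silencing, so its loss is best known for genes that rise, and genes that fall are less often described. An siRNA duplex carries a guide strand whose 5′ end, the seed at bases 2 to 8, can pair with the 3′ untranslated regions (UTRs) of other mRNAs in the manner of a microRNA and lower them.

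The libraries held 17362546 to 33500030 counts (median 20859668). Dnmt1 measured 79.3 to 193 CPM in the 16 si-control libraries and 5.31 to 17.1 CPM in the 16 si-dnmt libraries, so the groups did not overlap. All 8 endothelial markers examined, among them Cdh5 and Pecam1, were at 1 CPM or more in every library, while 6 of 8 epithelial markers and 5 of 8 leukocyte markers stayed under 0.5 CPM in all libraries. The other lists were not absent. Of 8 fibroblast markers 3 were at 1 CPM or more in every library, with sums of 206 to 518 CPM in si-control and 212 to 374 CPM in si-dnmt. Of the leukocyte markers 2 were, with sums of 90.3 to 236 CPM and 63.3 to 197 CPM. The summed level of 8 pericyte and smooth muscle markers was 8.14 to 68.1 CPM in si-control and 42.8 to 242 CPM in si-dnmt, with 3 of them (Rgs5, Cspg4 and Des) under 0.5 CPM in all libraries. None of the 8 was a member, and the part of this shift in the falls was not tested. In bulk RNA, fewer cells of a type and less RNA per cell cannot be told apart. Replicates 1 and 2 differed from replicates 3 and 4 in the level of many members in every group, and the labels do not say what separates them.

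The siRNA target sites are shown because a part of each can be looked for in the members' mRNAs. The study's methods list 2 siRNAs against Dnmt1 and do not say whether they were pooled or which strand acted as guide. Both sites lie in the coding sequence of Dnmt1 on the minus strand of chromosome 9 (GRCm38), the first at chr9:20915858-20915882 in exon 28 of 39 and the second at chr9:20922108-20922132 in exon 21. Capitals mark the 7 bases that would pair with the seed of the guide strand.
First siRNA site: taccctgagcactaccgCAAGTATt
Second siRNA site: ccaagctggtctatcagATCTTTGa

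A 3′ UTR in the GENCODE M21 annotation was found for 87 of the 92 members and for 12499 of the other genes tested, the longest UTR of each gene being used. The 7-letter word CAAGTAT of the first site stood in the 3′ UTR of 32 members (36.8%) against 9.01% of the other genes tested and 10 of 200 genes that a mirrored rule (the same ratio, raised) picked out. Its last 6 letters, AAGTAT, stood in 68 members (78.2%), in 32.04% of the other genes tested and in 48 of 200 the raised genes. Among all 4096 words of 6 letters, AAGTAT ranked 1 by the difference in share between members and all genes tested. Among 16384 words of 7 letters, GCAAGTA, which starts 1 base earlier in the same site, ranked 1 with 41.4% against 6.07%, and CAAGTAT ranked 6. These words overlap each other, and the search was made after the members were known.

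The word of the second site, ATCTTTG, did not stand apart in this way. It stood in 13.8% of members, 14.7% of other genes tested and 32 of 200 raised genes. Its 6-letter core TCTTTG stood in 64.4% of members and 46.1% of other genes tested. The words of the opposite (passenger) strands were also near the background, with 13.8% of members against 13.5% of all genes tested for the first siRNA and 16.1% against 14.3% for the second.

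**Figure D1:**
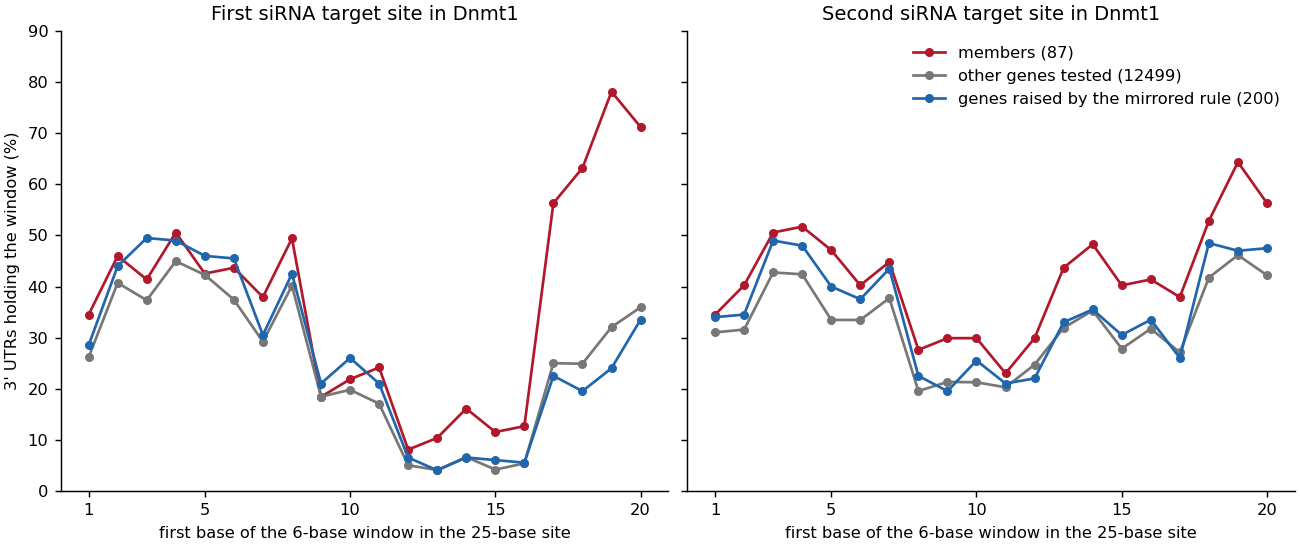
Share of genes (%) whose 3′ UTR holds each 6-base window of the siRNA target sites in Dnmt1, by the first base of the window, for the members, the other genes tested and the genes raised by the mirrored rule. In the first site the members stand at 56.3%, 63.2%, 78.2% and 71.3% for the windows that start at bases 17 to 20. The other genes stand at 24.98%, 24.9%, 32.04% and 35.9%. Earlier windows of that site lie closer together in percentage points. Those that start at bases 13 to 16 are rare, and the members are above the other genes there too. They stand at 10.3%, 16.1%, 11.5% and 12.6% against 4.05%, 6.61%, 4.14% and 5.35%.

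Members had longer 3′ UTRs than other genes, with a median of 2140 against 1188 bases, which by itself gives a word more room. The word CAAGTAT occurred 0.202 times per kb in members, 0.0600 in other genes tested and 0.0286 in raised genes. Within each band of UTR length the share was higher in members. Under 1000 bases it was 19.2% of 26 members against 2.54% of other genes, and from 1000 to 2000 bases 40% of 15 against 8.28%. From 2000 to 4000 bases it was 45.7% of 35 members against 15.2%, and above 4000 bases 45.5% of 11 against 29.5%. In coding sequence CAAGTAT stood in 11.5% of members and 9.65% of other genes, at 0.0873 and 0.0627 times per kb.

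Of the 15 members with the largest falls, 8 held the 7-letter word, 3 held the 6-letter word alone, 2 held neither and 2 had no annotated UTR. The sites of 6 of them and the 3 sites of Kdm1b, the member with the most matches, are shown because they let the pairing bases be compared with the siRNA site above. Each is 26 bases of mRNA-sense sequence (GRCm38) with the word in capitals.
St8sia4, chr1:95620376-95620401, minus strand: gcttccttcaaaccctccCAAGTATc
Lhfpl2, chr13:94194342-94194367, plus strand: accatcactaggaccagaCAAGTATt
Taf5l, chr8:123996423-123996448, minus strand: atcatgaatgcgcactcgCAAGTATt
Hmgcs1, chr13:119707885-119707910, plus strand: gtgcatgtaatttttttgCAAGTATt
Cdc25b, chr2:131198270-131198295, plus strand: atgcacacaaaccgggtcCAAGTATt
Kcnj2, chr11:111073563-111073588, plus strand: cagtgtgctttaaagcatCAAGTATt
Kdm1b, chr13:47084358-47084383, plus strand: gagctttgtgtgctatttCAAGTATa
Kdm1b, chr13:47084477-47084502, plus strand: gacttttgttaatgagcaCAAGTATa
Kdm1b, chr13:47084874-47084899, plus strand: ctttaagcatattgaagtCAAGTATg

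Within the set, the median of the ratios that chose the members, each the geometric mean over the 4 states, was 2.27 in the 32 members with the 7-letter word, 2.18 in the 36 with the 6-letter word alone and 2.26 in the 19 with neither, and nothing is read from these medians because the rule cut the ratios at 1.7. Members without the word included Cxcr4, Sgpp1, Fabp4 and Ndrg1. Genes that were not members, which the rule did not pick, also differed by the word. Their median log2 fold change for si-dnmt against si-control without cytokine was 0.03 in 8494 genes without the 6-letter word and −0.01 in 2879 with the 6-letter word alone. It was −0.10 in 1012 genes with 1 match of 7 letters and −0.20 in 114 with 2 or more. With TNF the same classes stood at 0.06, −0.05, −0.17 and −0.29, with IFN at 0.04, −0.01, −0.10 and −0.17, and with TNF + IFN at 0.02, −0.03, −0.11 and −0.20. For the word of the second site the medians of the 4 classes lay between −0.05 and 0.04 in all states. With TNF, however, 8.66% of genes without its 6-letter word were called lower and 18.6% of those with 2 or more matches. Of the latter 12.4% were called higher. For the first site the shares called lower with TNF were 7.05% and 36.8%. The classes were not matched for UTR length. These are descriptions over genes that share their libraries, and the part of such pairing in the members' falls was not tested.

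**Figure D2:**
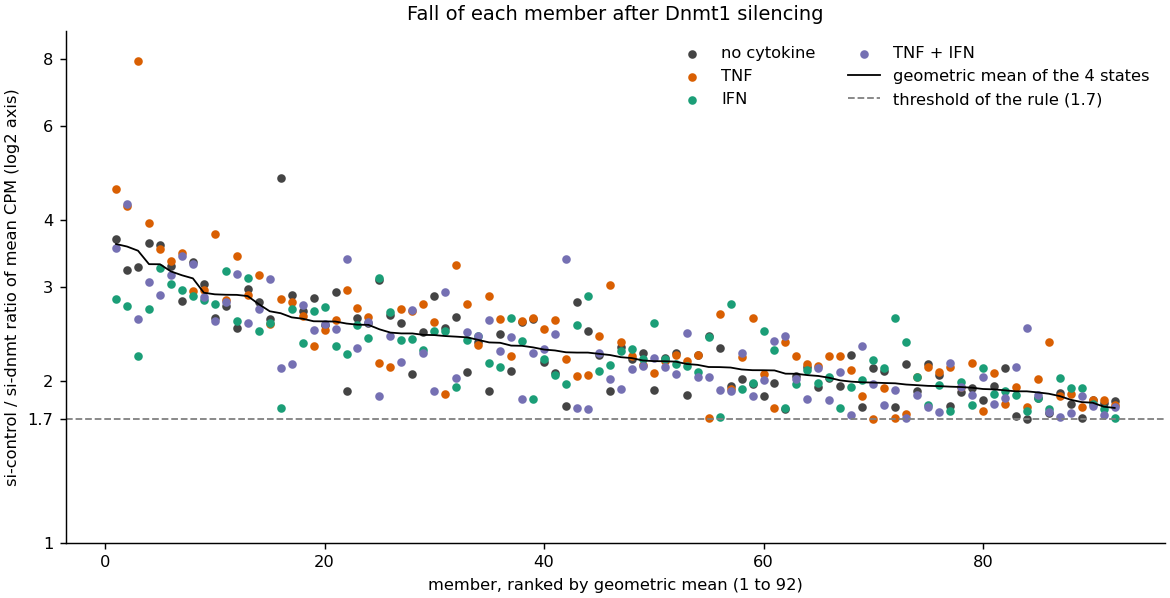
Ratio of si-control to si-dnmt mean CPM (with 0.25 added, log2 axis) for each of the 92 members, ranked by the geometric mean over the 4 states (black line), with 1 point per state. All points lie at or above the threshold of 1.7 that chose the members, and 8 members have a geometric mean of 3 or more.

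The falls were moderate in size. The geometric mean ratio had a median of 2.23 and ran from 1.78 in Adal to 3.61 in St8sia4. It was 3 or more in 8 members, between 2 and 3 in 59 and under 2 in 25. The median ratio was 2.19 without cytokine, 2.23 with TNF, 2.20 with IFN and 2.15 with TNF + IFN. By edgeR's quasi-likelihood test with Benjamini-Hochberg adjustment, 75, 81, 75 and 77 of the 92 were called lower in the same order of states, where 8.88%, 9.59%, 9.54% and 8.72% of all 15254 genes tested were called lower. The rule used these contrasts, so nothing is read from these counts. In 71, 70, 77 and 76 members every si-dnmt library lay below every si-control library, which was so for 6.96%, 8.17%, 7.03% and 7.92% of all genes tested. In 61 members this held in all 4 states, and in 8 it held in none, for which the share of all genes was not computed. The rule used these comparisons too, so nothing is read from the counts of separated members.

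The threshold cut through a continuous range of ratios. Just inside it were Ddit4, an inhibitor of mTOR signalling, with a smallest ratio of 1.701 without cytokine, and Wrb, a receptor for tail-anchored membrane proteins, with 1.705 under TNF. Just outside were Hlx, a homeobox gene, with 1.696 under TNF + IFN, and Kif5b, a kinesin motor, with 1.689 under IFN.

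Regulators of transcription and chromatin made up 11 members, with geometric mean ratios from 1.85 to 3.21 (median 2.10). The roles of members were assigned from their symbols after the members were known. Taf5l encodes a scaffold subunit of the histone acetyltransferase complex built around PCAF. Taf5l measured 34.97, 37.9, 35.2 and 35.6 CPM in the si-control replicates 1 to 4 and 11.4, 13.6, 8.59 and 9.36 CPM in si-dnmt. With TNF it measured 33.3, 35.8, 46.96 and 48.5 CPM in si-control and 12.5, 15.1, 8.47 and 12.3 CPM in si-dnmt. The si-dnmt libraries were lower throughout, without overlap in any state. With IFN the 4 si-control libraries were at 28.6, 31.9, 35.3 and 37.5 CPM and the si-dnmt libraries at 12.6, 11.8, 9.33 and 9.37 CPM. With TNF + IFN they were at 34.3, 29.4, 43.6 and 43.5 and 12.3, 12.1, 12.1 and 10.5 CPM. Gm13316, a processed pseudogene with 99.6% identity to Taf5l over 689 bases, was a member as well, so reads may be shared and both values are uncertain. Its ratios were 3.34, 2.95, 2.88 and 3.31 in the order none, TNF, IFN and TNF + IFN.

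Cbx3 encodes HP1γ, a reader of methylated histone H3. Without cytokine it measured 159, 149, 213 and 217 CPM in si-control and 64.98, 66.9, 53.9 and 61.7 CPM in si-dnmt. With TNF + IFN it measured 102, 117, 167 and 174 CPM and 60.99, 57.6, 51.3 and 46.9 CPM. Replicates 3 and 4 were the higher controls and the lower silenced libraries in both states, and no libraries overlapped. With TNF the control libraries stood at 227, 213, 217 and 192 CPM and the silenced ones at 93.5, 83.4, 60.5 and 54.03 CPM. With IFN the values were 150.4, 126, 238 and 191 CPM and 55.8, 62.5, 53.3 and 54.00 CPM. Cbx3-ps7, a processed pseudogene with 99.6% identity over 552 bases, fell by ratios of 2.49 to 2.76, and its reads cannot be separated with certainty from those of Cbx3.

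Kdm1b, a histone H3 lysine demethylase that acts before DNA methylation is laid down in the female germline, fell from 10.3, 9.66, 9.17 and 10.05 CPM in si-control to 5.3, 6.01, 4.54 and 5.49 CPM in si-dnmt. Its ratios were 1.80 without cytokine, 2.12 with TNF, 1.76 with IFN and 2.17 with TNF + IFN, and its 3 matches to the siRNA word are printed above. Stat5b, a transducer of cytokine receptor signals, stood at 65.5, 63.9, 72.8 and 70.1 CPM in si-control and 34.4, 31.9, 18.1 and 21.1 CPM in si-dnmt, and its 4 ratios lay between 2.41 and 2.64. Mef2c, a factor of the vascular and cardiac programmes, measured 64.8, 72.1, 78.1 and 83.7 CPM in si-control and 44.2, 40.1, 25.7 and 26.7 CPM in si-dnmt. All 3 separated the groups in every state. The other regulators had geometric means from 1.85 to 2.25. Foxk2, a forkhead factor, had a geometric mean of 2.25, Tgif1, a repressor of TGFβ responses, 2.10, and Nkap, a repressor linked to Notch, 2.03. Taf10, a subunit of TFIID and SAGA, had 1.99, Dbp, a clock-controlled factor, 1.97, and Anp32e, a chaperone of histone H2A.Z, 1.85. Of the 11, 7 held the 7-letter word and 10 the 6-letter word, Dbp being without either.

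Among genes of RNA handling, Eif5a2, a paralog of the translation factor eIF5A, had the largest ratio. It measured 19.7, 22.9, 23.03 and 25.9 CPM in si-control and 7.46, 7.2, 5.54 and 4.55 CPM in si-dnmt. With TNF + IFN the values were 14.5, 12.1, 15.96 and 16.7 CPM and 5.64, 5.87, 4.51 and 3.77 CPM. The lowest control of both states was at 12.1 CPM and the highest silenced library at 7.46 CPM. Its libraries with TNF were at 22.7, 21.05, 26.1 and 22.4 CPM and 8.27, 6.43, 5.65 and 5.07 CPM, and those with IFN at 15.4, 12.5, 21.3 and 16.7 CPM and 6.2, 5.28, 3.92 and 4.18 CPM. Mbnl2, a splicing regulator, had a geometric mean of 2.05, and Rngtt, the mRNA capping enzyme, 1.90. Trdmt1, the tRNA methyltransferase that is a relative of the DNA methyltransferases, measured 4.8, 5.3, 4.79 and 7.1 CPM in si-control and 1.83, 2.89, 4.01 and 2.73 CPM in si-dnmt, and its 4 ratios ran from 1.76 to 2.12.

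**Figure D3:**
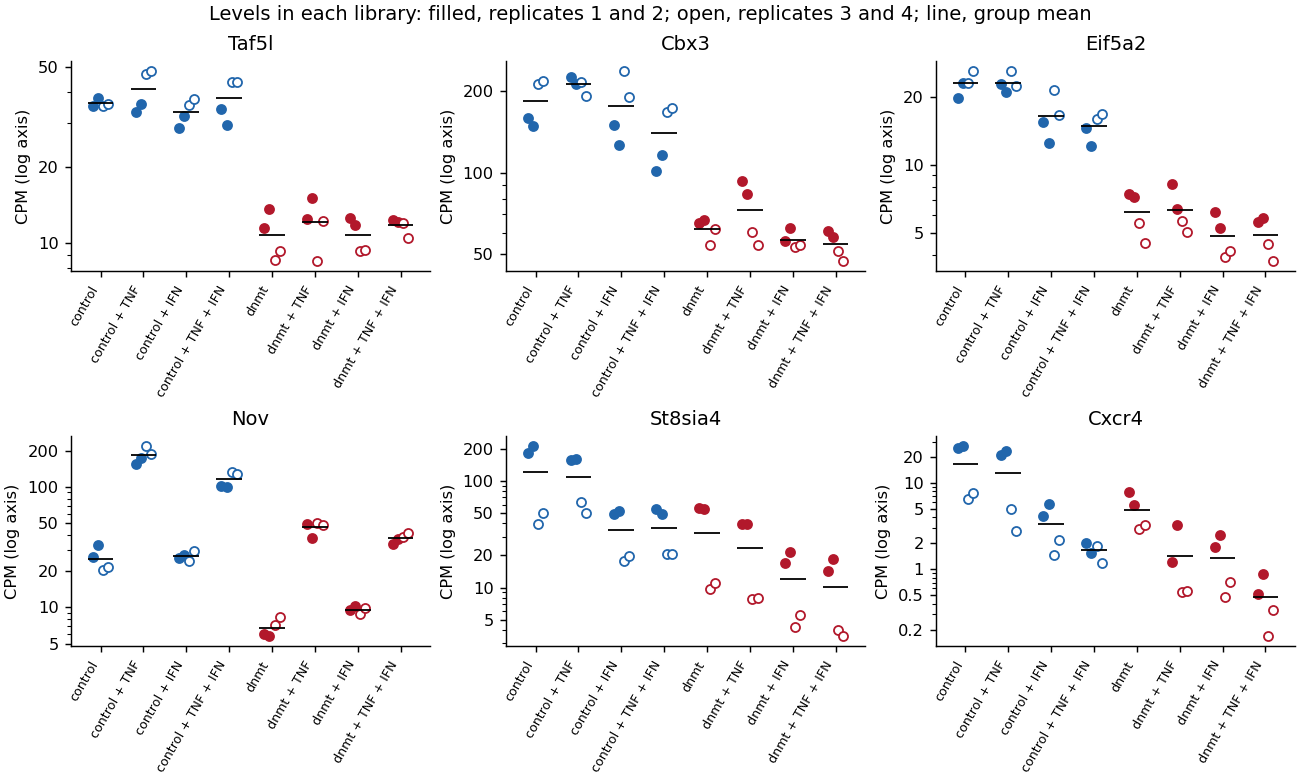
Level of 6 members (CPM, log axis) in each of the 32 libraries, in blue for si-control and red for si-dnmt, with filled points for replicates 1 and 2, open points for replicates 3 and 4 and a line at the group mean. In Taf5l, Cbx3, Eif5a2 and Nov the silenced libraries of a state lie below all of its controls, while in St8sia4 and Cxcr4 the replicate sets are so far apart that the groups overlap in 2 and 3 of the 4 states.

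Receptors and secreted factors made up 8 members, with geometric mean ratios from 2.07 to 3.51 (median 2.44). Nov (CCN3), a secreted matricellular protein, measured 26.2, 33.02, 20.4 and 21.5 CPM in si-control and 6.05, 5.74, 7.17 and 8.26 CPM in si-dnmt. With TNF it reached 156, 172, 220.1 and 189 CPM in si-control and 49.00, 37.5, 50.4 and 48.6 CPM in si-dnmt. TNF thus raised it under both siRNAs, and the silenced cells stayed below the controls without overlap. With IFN it stood at 25.5, 27.4, 24.2 and 29.5 CPM in si-control and 9.44, 10.3, 8.75 and 9.91 CPM in si-dnmt. With TNF + IFN it stood at 102, 99.2, 134 and 128 CPM and 33.8, 37.2, 38.1 and 41.4 CPM.

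Cxcr4, the receptor for CXCL12, had the largest ratio of any single state, 7.94 with TNF. It measured 25.03, 26.8, 6.41 and 7.7 CPM in si-control and 7.88, 5.46, 2.9 and 3.26 CPM in si-dnmt, and with TNF 20.7, 23.1, 4.94 and 2.78 CPM and 1.22, 3.29, 0.545 and 0.557 CPM. Replicates 1 and 2 were the higher libraries in each of these groups, and the groups overlapped because silenced replicate 1 without cytokine and silenced replicate 2 with TNF lay above 1 or both controls of replicates 3 and 4. With IFN it measured 4.12, 5.63, 1.47 and 2.19 CPM and 1.79, 2.48, 0.478 and 0.716 CPM. In the combined state, which had no overlap, it measured 2.03, 1.54, 1.86 and 1.18 CPM and 0.518, 0.886, 0.167 and 0.338 CPM. Several of the last values rest on few reads. Kit, the receptor for stem cell factor, had a geometric mean of 2.46, Igf1, a growth factor, 2.42, and Stc1, a secreted glycoprotein hormone, 2.68. Tgfbi, a matrix protein induced by TGFβ, had 2.36, Grpr, the receptor for gastrin-releasing peptide, 2.24, and Adgrl2, an adhesion G protein-coupled receptor, 2.07. The groups overlapped in every state in Stc1 and Grpr, and were apart in 1 state in Kit and Adgrl2 and in 2 in Igf1. The unblocked fit called 2 of the 8 lower in all 4 states. It called Kit, Stc1 and Grpr in 1 state and Igf1 in 0.

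The member with the largest geometric mean was St8sia4, the enzyme that adds polysialic acid to proteins such as NCAM. It measured 181, 214, 39.6 and 50.01 CPM in si-control and 55.6, 54.5, 9.66 and 11.1 CPM in si-dnmt. With TNF it measured 158, 162, 63.5 and 50.1 CPM and 39.3, 39.3, 7.78 and 8.02 CPM. Within each replicate set the silenced libraries were lower, but without cytokine the silenced replicates 1 and 2 were above the control replicates 3 and 4. With IFN the values were 49.04, 52.8, 17.8 and 19.6 CPM and 16.98, 21.5, 4.3 and 5.58 CPM. With both cytokines they were 54.1, 49.2, 20.6 and 20.7 CPM and 14.2, 18.4, 4.01 and 3.48 CPM. The unblocked fit called St8sia4 in 1 state, and the fit with the replicate number as a block called it in all 4. Lhfpl2, a tetraspan membrane protein, came next and separated the groups in every state, with 12.7, 15.96, 29.6 and 35.9 CPM in si-control and 7.27, 5.51, 8.07 and 7.58 CPM in si-dnmt. Its values with TNF were 16.2, 16.7, 28.6 and 31.4 CPM and 4.9, 3.94, 6.09 and 6.18 CPM, and its ratios with IFN and with TNF + IFN were 2.76 and 4.28.

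Lipid and sterol metabolism was represented by 7 members, with a median ratio of 2.56. Hmgcs1, the cytosolic HMG-CoA synthase of sterol synthesis, measured 179, 177, 87.3 and 84.8 CPM in si-control and 78.7, 63.4, 30.5 and 28.2 CPM in si-dnmt. With TNF it measured 188, 206, 58.8 and 59.7 CPM and 49.4, 49.8, 17.7 and 18.5 CPM. It did not overlap in any state, and its ratio was largest with TNF, at 3.77. Of the 20 other tested genes of sterol synthesis, 0, 3, 0 and 1 were called lower without cytokine, with TNF, with IFN and with TNF + IFN, where 8.88%, 9.59%, 9.54% and 8.72% of all genes tested were, and 0, 0, 1 and 0 were called higher. With Hmgcs1 included the list had median log2 fold changes of −0.28, −0.73, −0.37 and −0.49. Sgpp1, the phosphatase of sphingosine 1-phosphate, measured 13.6, 14.6, 11.8 and 16.7 CPM in si-control and 5.11, 6.01, 4.91 and 3.45 CPM in si-dnmt. With TNF + IFN it measured 12.6, 13.3, 23.7 and 22.4 CPM and 6.91, 4.54, 4.34 and 4.54 CPM, again without overlap.

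Fabp4, the fatty acid-binding protein of adipocytes and microvascular ECs, was among the most abundant members. It measured 1276, 1105, 180.4 and 195 CPM in si-control and 483, 398, 55.2 and 81.3 CPM in si-dnmt. With TNF + IFN the controls had 139, 144, 38.5 and 38.98 CPM and the silenced libraries 33.3, 44.7, 23.5 and 27.3 CPM. In the controls the gap between the replicate sets was wider than that between the siRNAs, and the groups overlapped in every state. Each silenced library without cytokine was below the control of the same replicate number. The unblocked fit called Fabp4 in no state, and the blocked fit called it lower in all 4. The same was so of Fabp5, its close relative, with ratios of 1.85 to 2.62. The stearoyl-CoA desaturases Scd1 and Scd2 had geometric means of 2.36 and 2.56, and they share 87.6% identity over 1196 bases, so their reads may be split. Mbtps2, the site-2 protease that releases SREBP, had 2.18. Of the 37 tested genes of lipid and prostanoid metabolism that were not members, 3, 5, 1 and 7 were called lower in the 4 states, to be read against the same shares of all genes, and 1, 2, 2 and 2 higher.

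Cell division and signalling enzymes formed a further group of 6 members, with geometric mean ratios from 2.16 to 2.90. Cdc25b, the phosphatase that activates cyclin-dependent kinases at the entry to mitosis, measured 34.4, 32.9, 75.2 and 70.8 CPM in si-control and 21.5, 21.8, 15.5 and 17.7 CPM in si-dnmt. With TNF + IFN it measured 23.2, 25.4, 48.9 and 50.8 CPM and 13.5, 12.6, 14.2 and 11.8 CPM. The fall was thus larger in replicates 3 and 4, whose controls were higher. Cks2, a subunit of cyclin-dependent kinase complexes, had a geometric mean of 2.26, Hipk3 and Nek4, both protein kinases, 2.46 and 2.16, and Ppp1cb, a catalytic subunit of protein phosphatase 1, 2.44. Pkia, the inhibitor of protein kinase A, had 2.33. None of 30 cell cycle genes listed was a member, and 2, 5, 6 and 2 of them were called lower and 1 higher in each state, with median log2 fold changes of −0.36, −0.48, −0.50 and −0.41. Of all genes tested, 8.88%, 9.59%, 9.54% and 8.72% were called lower.

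Among ion channels and calcium sensors, Kcnj2 (Kir2.1), the inward rectifier potassium channel of ECs, measured 34.9, 42.9, 1.54 and 2.3 CPM in si-control and 17.3, 12.9, 0.781 and 0.909 CPM in si-dnmt. With TNF it measured 17.6, 16.4, 6.26 and 3.11 CPM and 4.6, 6.18, 0.198 and 0.947 CPM. Replicates 1 and 2 held most of the signal and the groups overlapped in all states. The unblocked fit called Kcnj2 in no state and the blocked fit in all 4. Ncald (neurocalcin delta), a calcium sensor, was lower without overlap in all states, from 13.4, 16.3, 10.5 and 11.7 CPM to 6.19, 6.42, 2.75 and 3.83 CPM without cytokine. Stim2, a sensor of calcium in the endoplasmic reticulum, had ratios of 1.95 to 2.14. Ypel2, a member of the yippee family, measured 142, 143, 70.3 and 82.5 CPM in si-control and 55.9, 49.97, 24.4 and 24.5 CPM in si-dnmt. Gm45884, a predicted gene with uncertain annotation, was also among the first 15 members, with ratios of 2.83 to 3.04.

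Adhesion and cytoskeletal members numbered 5, with a median ratio of 2.12. Jam3, a junctional adhesion molecule, had a geometric mean of 2.59, Pcdh19, a protocadherin, 2.12, and Pvr, the poliovirus receptor and nectin-like adhesion molecule, 1.91. Iqgap2, a scaffold of small GTPases, had 2.13, and Vim, the intermediate filament protein of mesenchymal and endothelial cells, 1.83. In Iqgap2 the groups overlapped in every state, and the unblocked fit called it in 0. Vim was the most abundant, at 1925, 1934, 4346 and 3987 CPM in si-control and 1365, 1385, 2138 and 2244 CPM in si-dnmt. Of the 5, 0 held the 7-letter word of the siRNA site and 4 held the 6-letter word. Of the 44 tested junction and adhesion genes that were not members, 4, 6, 3 and 4 were called lower, to be read against the same shares of all genes, and 3, 5, 6 and 7 higher.

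The hypoxia-responsive members were Ndrg1, with a geometric mean of 2.43, Ankrd37, with 2.27, and Ddit4, with 1.92. In Ankrd37 the groups overlapped in every state, and the unblocked fit called it in 1. Of the 26 other tested genes of hypoxia and glycolysis, 2, 7, 5 and 18 were called lower in the order none, TNF, IFN and TNF + IFN, where 8.88%, 9.59%, 9.54% and 8.72% of all genes tested were, and 0 were called higher. With the 3 members included the median log2 fold changes were −0.19, −0.41, −0.30 and −0.79. Ndrg1, Ankrd37 and Ddit4 all had their largest ratios with TNF + IFN, at 2.94, 3.38 and 2.51. The lists of VEGF and angiopoietin signalling, TGFβ and BMP signalling, G protein-coupled receptors and ion channels held 1 member each. The lists of endothelial identity, Notch signalling, YAP and TEAD targets, actin cytoskeleton, other matrix genes, imprinted genes, p53 targets, cell cycle, interferon response and TNF response held 0.

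The remaining 45 members were given no role here. They include Qdpr, a reductase that recycles tetrahydrobiopterin, with a geometric mean of 2.59, Mat2b, a regulatory subunit of methionine adenosyltransferase, which makes the methyl donor of DNMT1, with 2.55, and Fbxo45, a substrate receptor of a ubiquitin ligase, with 2.44. Nus1, a subunit of the enzyme that makes dolichol, had 1.96, and Ddah2, which is linked to the breakdown of methylated arginines, 1.92. By annotation, 87 members were protein coding, 2 were processed pseudogenes and the rest were other or unmatched types. Transcripts of Ctla2a and Nek4 share 90.03% identity over 371 bases and those of Gpn1 and Sgpp1 85.4% over 206 bases, so reads could be split there too. Members lay on 20 chromosomes, with at most 10 on any one, and 1 pair was adjacent among the genes tested. The 178 tested neighbours of members had a median log2 fold change, averaged over the states, of −0.11, and 59.6% were below 0 against 50.3% of all genes tested.

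**Figure D4:**
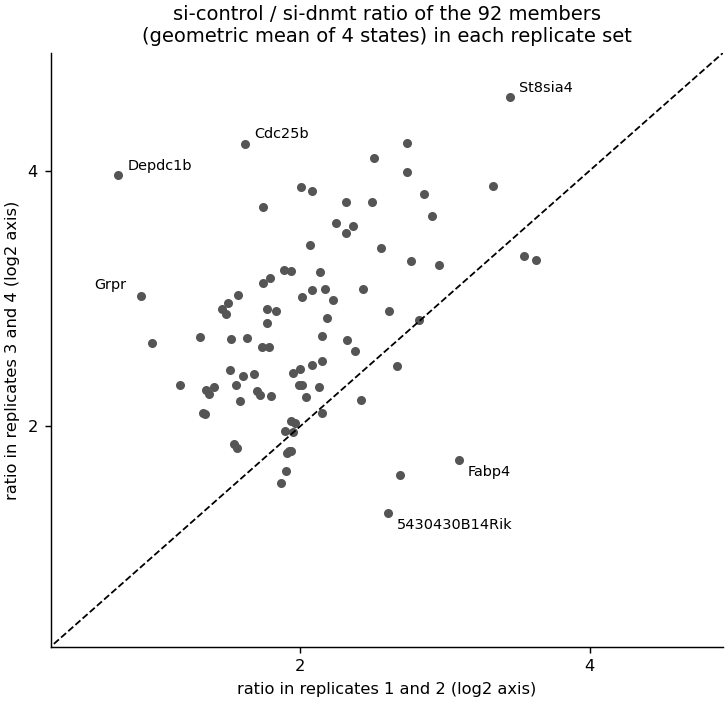
Ratio of si-control to si-dnmt (geometric mean of the 4 states, log2 axes) of the 92 members in replicates 3 and 4 against replicates 1 and 2, with a dashed line of equality. Most points lie above the line: 79 members had the larger ratio in replicates 3 and 4, where the median was 2.54 against 1.97.

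The size of the fall differed between the replicate sets. The ratio was larger in replicates 3 and 4 in 79 members and in replicates 1 and 2 in 13. More of all genes were also called in replicates 3 and 4. Without cytokine, replicates 1 and 2 alone had 2008 genes called higher and 1666 lower with si-dnmt, of 15366 tested. Replicates 3 and 4 alone had 2683 and 2860, of 15184. Every state's ratio was above 1 in 91 members in replicates 1 and 2 and in all 92 in replicates 3 and 4. The ratio of 1.7 was met in all states within both sets by 46 members. The largest differences were in Depdc1b, a gene of mitotic cells, with 1.29 in replicates 1 and 2 and 3.95 in replicates 3 and 4, in Cdc25b, with 1.75 and 4.30, and in Grpr, with 1.37 and 2.85. Depdc1b measured 5.72, 5.41, 12.9 and 13.2 CPM in si-control and 3.99, 3.85, 2.27 and 3.26 CPM in si-dnmt, so that the controls of the sets differed more than the silenced libraries. Grpr measured 1.73, 1.63, 3.39 and 3.46 CPM in si-control and 0.798, 1.15, 1.26 and 1.63 CPM in si-dnmt. Fabp4 differed the other way, with 2.92 in replicates 1 and 2 and 1.83 in replicates 3 and 4. The medians of replicates 1 and 2 and of replicates 3 and 4 were 1.95 and 2.64 in the 32 members with the 7-letter word, 1.97 and 2.65 in the 36 with the 6-letter word alone and 2.01 and 2.31 in the 19 with neither, and these differences were not tested.

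The responses to cytokine were not used by the rule, apart from its floor of 1 CPM, which leaves out genes that a cytokine silences in the controls. Except with IFN in si-dnmt, where the counts were equal, more members were called lower with cytokine than higher. In si-control, TNF raised 6 and lowered 12 of the 92, where 16.1% and 14.6% of all genes tested were called higher and lower. IFN raised 2 and lowered 3, against 8.56% and 5.92%, and TNF + IFN raised 8 and lowered 29, against 23.5% and 21.6%. In si-dnmt, TNF raised 5 and lowered 10, against 11.5% and 9.54%, IFN raised 2 and lowered 2, against 6.66% and 2.35%, and TNF + IFN raised 10 and lowered 23, against 21.3% and 18.9%. The median log2 change of the members with TNF + IFN was −0.30 in si-control and −0.23 in si-dnmt, against −0.01 and 0.01 over all genes tested.

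The replicate numbers were taken to pair the libraries, although the same number gave the best match in only 70 of 112 pairs. With the number as a block in the fit, more members and more of all genes were called. In si-control the blocked edgeR fit called 11 members higher and 23 lower with TNF, against 22% and 21.4% of all genes tested. With IFN it called 6 and 15, against 12.7% in each direction, and with TNF + IFN 16 and 40, against 28% and 27%. In si-dnmt it called 9 and 28 with TNF, against 17.8% and 16.5%, 5 and 13 with IFN, against 10.9% and 8.04%, and 14 and 37 with TNF + IFN, against 26.6% and 25%. For si-dnmt against si-control the block called 92, 92, 92 and 91 members lower in the 4 states, where 15.8%, 16.2%, 16.6% and 15.6% of all genes tested were, and nothing is read from these counts, which the rule used. Grpr was the member not called in 1 state.

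**Figure D5:**
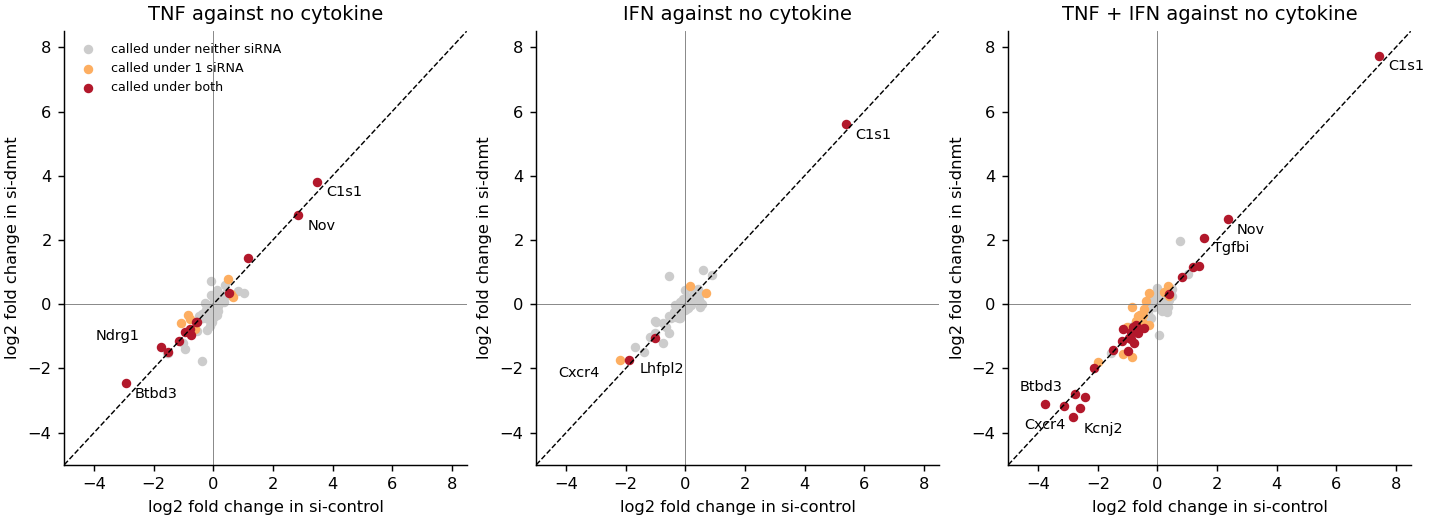
log2 fold change of each member with TNF, IFN or TNF + IFN against no cytokine, in si-dnmt (vertical) against si-control (horizontal), with a dashed line of equality and colour for the number of siRNAs under which the member was called. Members lie close to the line in all 3 panels, and C1s1 with TNF + IFN is the farthest from 0, at 7.44 in si-control and 7.74 in si-dnmt.

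C1s1, a serine protease of the complement pathway, had the largest rise in all 3 cytokine states. In si-control it measured 8.89, 11.03, 1.22 and 1.29 CPM without cytokine, 76.8, 80.8, 48.3 and 46.3 CPM with TNF, 365, 349.6, 78.9 and 72.1 CPM with IFN and 1112, 978, 659.7 and 701 CPM with TNF + IFN. In si-dnmt the values were 4.18, 3.67, 1.3 and 0.909, 55.1, 48.7, 18.04 and 16.9, 156, 181, 60.5 and 53.1 and 633, 598, 324 and 298 CPM. All cytokine libraries lay above all libraries without cytokine under the same siRNA. The edgeR log2 fold change in si-control was 3.49 ± 0.68 (SE, adjusted p = 0.00026) with TNF, 5.39 ± 0.73 (SE, adjusted p = 2.57e-06) with IFN and 7.44 ± 0.80 (SE, adjusted p = 1.05e-08) with TNF + IFN. In si-dnmt it was 3.82 ± 0.71 (SE, adjusted p = 0.000264), 5.61 ± 0.76 (SE, adjusted p = 2.99e-06) and 7.74 ± 0.82 (SE, adjusted p = 1.05e-08) in the same order.

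Nov rose with TNF by a log2 fold change of 2.86 ± 0.15 (SE, adjusted p = 5.53e-14) in si-control and 2.77 ± 0.15 (SE, adjusted p = 1.64e-13) in si-dnmt, by edgeR. With TNF + IFN it rose by 2.36 ± 0.14 (SE, adjusted p = 1.27e-13) and 2.64 ± 0.15 (SE, adjusted p = 3.76e-14). IFN alone raised it in si-dnmt, by 0.58 ± 0.15 (SE, adjusted p = 0.00879) (0.36, adjusted p = 0.0578, in replicates 3 and 4 alone). Tgfbi rose with TNF, by 1.17 ± 0.37 (SE, adjusted p = 0.0161) in si-control and 1.43 ± 0.44 (SE, adjusted p = 0.0214) in si-dnmt, and with TNF + IFN, by 1.56 ± 0.37 (SE, adjusted p = 0.00103) and 2.06 ± 0.44 (SE, adjusted p = 0.000345). In replicates 3 and 4 alone 3 of these 4 Tgfbi calls were lost, all but that with TNF + IFN in si-dnmt. Leaving out si-control replicate 4 (1.03) or si-control + TNF replicate 2 (0.98) also ended the call of Tgfbi with TNF in si-control, and that in si-dnmt without si-dnmt replicate 4 (1.21) or si-dnmt + TNF replicate 1 (1.35) or 2 (1.07). Pkia rose with IFN in si-control, by 0.69 ± 0.22 (SE, adjusted p = 0.0317), and was no longer called without si-control replicate 3 (0.61) or 4 (0.64) or si-control + IFN replicate 1 (0.60), 2 (0.67) or 3 (0.64).

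The largest falls with TNF were those of Btbd3, a BTB-domain protein. In si-control it measured 925, 1057, 239.6 and 263 CPM without cytokine and 111, 109.5, 58.03 and 49.8 CPM with TNF, and in si-dnmt 394, 358, 60.2 and 71.7 and 55.5, 52.8, 23.5 and 28.1 CPM. Each TNF library was below every library without cytokine under the same siRNA. Its log2 fold change by edgeR was −2.94 ± 0.62 (SE, adjusted p = 0.000599) in si-control and −2.47 ± 0.61 (SE, adjusted p = 0.00429) in si-dnmt, and −3.76 ± 0.64 (SE, adjusted p = 2.22e-05) with TNF + IFN in si-control. Ndrg1, a stress-responsive gene, had a log2 fold change with TNF of −1.75 ± 0.28 (SE, adjusted p = 1.89e-05) in si-control and −1.34 ± 0.28 (SE, adjusted p = 0.00083) in si-dnmt. Ctla2a, a cysteine protease inhibitor, changed by −1.51 ± 0.26 (SE, adjusted p = 4.9e-05) and −1.48 ± 0.26 (SE, adjusted p = 0.000113).

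IFN lowered Lhfpl2 under both siRNAs, with a log2 fold change by edgeR of −1.89 ± 0.28 (SE, adjusted p = 1.32e-05) in si-control and −1.74 ± 0.30 (SE, adjusted p = 0.000122) in si-dnmt. Ncald followed with −1.01 ± 0.32 (SE, adjusted p = 0.0292) and −1.05 ± 0.33 (SE, adjusted p = 0.0456), and with TNF + IFN in si-dnmt it reached −3.25 ± 0.40 (SE, adjusted p = 1.74e-07). Cxcr4 had −2.19 ± 0.64 (SE, adjusted p = 0.019) with IFN in si-control, and with TNF + IFN it changed by −3.15 ± 0.68 (SE, adjusted p = 0.000371) in si-control and −3.16 ± 0.78 (SE, adjusted p = 0.00169) in si-dnmt. Kcnj2 changed by −2.83 ± 1.04 (SE, adjusted p = 0.0276) with TNF + IFN in si-control and −3.50 ± 1.21 (SE, adjusted p = 0.0213) in si-dnmt. The Kcnj2 change in si-control was −0.51 (adjusted p = 0.316) in replicates 3 and 4 alone.

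Several of these calls rested on single libraries. That of Cxcr4 with IFN depended on si-control replicates 1 (−1.93 without it) and 2 (−1.83) and on si-control + IFN replicates 3 (−1.97) and 4 (−2.02), and omission of any 1 of them ended it. For Ncald with IFN in si-control this was so of si-control replicates 1 (−1.002) and 2 (−0.87) and of si-control + IFN replicates 1 (−1.05), 3 (−0.998) and 4 (−0.93). In si-dnmt the Ncald call was lost without si-dnmt replicate 1 (−0.89) or 2 (−0.87) or si-dnmt + IFN replicate 1 (−1.17), 3 (−0.83) or 4 (−0.93). Its adjusted p also passed 0.05 without any of 6 libraries outside this contrast, where the log2 change stayed at −1.05. Those were si-control replicate 1, si-control + TNF replicates 1 to 4 and si-dnmt + TNF + IFN replicate 2. For Kcnj2 in si-control the libraries were si-control replicates 1 (−2.46) and 2 (−2.15) and si-control + TNF + IFN replicates 3 (−2.63) and 4 (−2.61). For Kcnj2 in si-dnmt they were si-dnmt replicates 1 (−2.77) and 2 (−3.17) and si-dnmt + TNF + IFN replicates 3 (−3.19) and 4 (−3.17).

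A test of the interaction asked whether the change with cytokine differed between the siRNAs. By edgeR, 0 of the 92 members were called with TNF, IFN or TNF + IFN, where 0.0328%, 0.0459% and 0.531% of all genes tested were called. At an unadjusted p under 0.05 the counts were 1, 0 and 2 members, against 6.63%, 2.65% and 9.04% of all genes tested, and DESeq2 called 0 in each state. The rule held the ratio above 1.7 in every state, which limits how far a member's fall can differ. With the replicate block 0, 0 and 2 members were called by edgeR, against 0.892%, 0.387% and 4.18% of all genes tested. The 2 members with TNF + IFN were Scd2 with a log2 difference of −0.97 (adjusted p = 0.036) and Ankrd37 with −1.04 (adjusted p = 0.0383), which means larger falls with TNF + IFN than without cytokine.

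Since DNMT1 acts on CpG dinucleotides, promoter windows were examined in the RefSeq table (GRCm38.p6), which runs from 250 bases before to 50 after the start of each gene and matched 66 of the 92 members. Where a gene had more than 1 window only the first listed was used, as in Taf5l (2 windows), C1s1 (2) and Mef2c (3). A window was counted as CpG-rich at an observed to expected CpG ratio of at least 0.6 and a GC content of at least 50%. This was so for 75.8% of members, 67.0% of all genes tested with a window and 42.1% of the genes raised by the mirrored rule. The median observed to expected ratio was 0.787, 0.756 and 0.546 in these sets, and median CpG counts were 22.5, 20 and 12. The 2 promoters below, of members with large ratios, show the dense and the moderate end, with each CpG in capitals. Taf5l (chr8:124021348-124021647, minus strand) holds 40 CpG and Cxcr4 (chr1:128592250-128592549, minus strand) holds 20.
Taf5l promoter: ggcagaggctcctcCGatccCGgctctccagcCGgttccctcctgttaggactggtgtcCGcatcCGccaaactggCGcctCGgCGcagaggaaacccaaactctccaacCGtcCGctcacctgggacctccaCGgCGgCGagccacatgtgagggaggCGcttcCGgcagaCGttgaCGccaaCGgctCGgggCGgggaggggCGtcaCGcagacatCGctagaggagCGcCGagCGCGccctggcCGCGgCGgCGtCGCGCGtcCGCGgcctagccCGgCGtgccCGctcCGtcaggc
Cxcr4 promoter: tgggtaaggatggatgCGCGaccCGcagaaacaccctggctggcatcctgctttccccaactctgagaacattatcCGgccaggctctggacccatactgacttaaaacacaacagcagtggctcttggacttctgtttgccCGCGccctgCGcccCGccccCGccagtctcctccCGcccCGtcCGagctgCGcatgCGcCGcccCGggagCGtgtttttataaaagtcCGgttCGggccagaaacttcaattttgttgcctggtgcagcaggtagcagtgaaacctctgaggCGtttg

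Members with CpG-poor windows were in the minority, among them C1s1 and Mef2c, each with 1 CpG in the window used. Fixed motifs were searched on both strands of the 300 bases. TATAAA, the TATA box, stood in 9.09% of members and 7.18% of all windows, and GGGCGG, the GC box, in 69.7% and 63.3%. CCAAT stood in 45.5% and 38.9%, CACCC in 65.2% and 62.3%, and the E-box CACGTG in 9.09% and 10.2%. ACAAAG stood in 19.7% and 13.5%, GGAAGT in 21.2% and 28.5%, and GATAAG in 3.03% and 4.78%. The AP-1 word TGACTCA, whose reverse complement is TGAGTCA, stood in 3.03% of members and 3.84% of all windows, against 10.1% of raised genes. TGACGTCA, the cyclic AMP element, stood in 0 of 66 members and 3.17% of all windows. No methylation was measured, so these windows say nothing of the methylation state of the promoters.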

How the data were processed

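Bulk RNA sequencing libraries of Veravec ECs were analysed, 4 in each of 8 groups taken from the labels. The authors deposited raw read counts per gene, as whole numbers, in a merged table and in library tables that held the same values. Per the submitters' processing notes, cutadapt 4.9, FastQC 0.12.1, MultiQC 1.27.1, featureCounts and DESeq2 were used. The aligner, the build and the strandedness were not given in the sources used here. Therefore reads of overlapping or antisense genes and of close copies may be shared. Counts of 203 identifiers that shared a symbol were summed by symbol. The set and the gene lists were chosen with earlier results of these data known, and the roles and the siRNA words after the members had been seen.

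Genes with too few counts were removed (filterByExpr, minimum count 10), which left 15254, all 92 members among them. The fit used edgeR 4.0.16 (quasi-likelihood F test, TMM scaling, 8 group means over all 32 libraries) in R 4.3.3, with Benjamini-Hochberg adjustment over all genes tested and a threshold of 0.05. CPM levels were scaled by library totals. The p-values measure the spread among 4 cultures of 1 cell line. The scripts were tested on simulated counts.

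Replicate numbers 1 to 4 recur in all groups and came from the labels. Deviations from the group means of libraries with the same number correlated at 0.297 to 0.617 (median 0.415) in 112 of 112 pairs. The same number gave the best match in 70 of the 112. Deviations shared by replicates 1 and 2 or by replicates 3 and 4 also give such correlations, so pairing by single number was not established. The numbers were still taken to pair the samples, and a fit with the number as a block was run beside the unblocked one. Other alternatives were DESeq2 1.42.0, no filter on low counts, replicates 1 and 2 or 3 and 4 alone, and each of the 32 libraries left out in turn.

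Genes were named by rule: the 15 members with the largest geometric mean ratio, those next to the threshold, list members, the 3 largest called rises and falls in each cytokine contrast, members called for interaction, the 3 that differed most between replicate sets, and regulators of transcription. Other members were named for their role after their values were seen. Coordinates and UTRs came from GENCODE M21 (GRCm38) and promoters from RefSeq (GRCm38.p6), copies from BLAST+ 2.17.0. Both siRNA sequences came from the study's methods and were located by exact match.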

Additional observations from a re-analysis of the deposited data

Results flagged for a closer look

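In 4 groups of 4 libraries, 1 library lay far from the other 3 by Dixon's criterion at the 95% level. These were 4 of 160 groups examined, those of the 20 members whose levels were examined by library, and chance gives about 1 in 20 groups. In si-dnmt + TNF, Nov measured 37.5 CPM in replicate 2 against 48.6 to 50.4 CPM in the others. In si-dnmt + TNF + IFN, Taf5l measured 10.5 CPM in replicate 4 against 12.1 to 12.3 CPM, and Sgpp1 measured 6.91 CPM in replicate 1 against 4.34 to 4.54 CPM. Grpr, a gene with few reads, measured 0.949 CPM in replicate 1 of si-dnmt + IFN against 0.478 to 0.537 CPM.

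Fbxo45 moved in opposite directions with TNF + IFN under the 2 siRNAs when libraries of the same replicate number were compared. It was lower with TNF + IFN in si-control (log2 fold change −0.27 ± 0.13 SE, edgeR adjusted p = 0.0847) and rose in si-dnmt (0.35 ± 0.13 SE, adjusted p = 0.033). The interaction was 0.61 on the log2 scale, with an adjusted p of 0.14 without the replicate block and 0.0522 with it, so the difference did not pass the threshold.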

How the results depend on the processing

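A ratio of at least 2 chose 38 members in place of 92, and the rule in replicates 3 and 4 alone chose 176, of which 81 were shared, while leaving out single libraries gave 83 to 100. Counts of members called lower with si-dnmt stayed within 1.5 times under every alternative. Members called by cytokine rose with the replicate block and within each replicate set, and so did the calls among all genes tested. With TNF in si-control, 18 became 34 with the block, 49 in replicates 1 and 2 and 47 in replicates 3 and 4. Among all 15254 genes tested in the main fit, 2460 were called higher and 2231 lower with TNF in si-control. These counts became 3068 and 2645 of 15366 in replicates 1 and 2 and 3409 and 3336 of 15184 in replicates 3 and 4. With IFN, 5 became 21, 36 and 25, and with TNF + IFN 37 became 56, 61 and 60. In si-dnmt, 15 with TNF became 37, 47 and 34, 4 with IFN became 18, 27 and 23, and 33 with TNF + IFN became 51, 56 and 52. The interaction count of 0 became 4 and 12 with TNF and 3 and 1 with IFN in the 2 replicate sets, and with TNF + IFN 2 with the block, 8 and 15. Leaving out single libraries gave 3 to 5 calls with IFN in si-control, with 3 called without si-control replicate 2, si-control + IFN replicate 1 or si-control + IFN replicate 3. With the block, 92, 92, 92 and 91 members were called lower with si-dnmt against 75, 81, 75 and 77 without it, and it changed no call among the single-gene results of the cytokine contrasts given in the text. Of 33 results of single genes under 1221 alternatives, 1177 kept their call, 44 lost it in 10 results and 0 reversed; the cause was not tested. The depth of 17362546 counts or more leaves genes near 1 CPM with few reads.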
